A study of Homo sapiens with 27 samples.

Results

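The comparison set the response to GATA2 knockdown in ARCaPM-DR against the same response in 22Rv1-DR, gene by gene. Both are human cell lines of castration-resistant prostate cancer in a chemotherapy-resistant (DR) form, which the labels call Ch-CRPC. It used 18 of the 27 libraries of the series, 9 for each of these lines, chosen by their labels. In each line 3 libraries carried a random control hairpin, 3 carried the short hairpin RNA shGATA2a and 3 carried shGATA2b, another hairpin against GATA2. The other 9 libraries, of DU145-DR, took no part in it. Total RNA of each library was sequenced. The resistant state is shared by the controls and the knockdown cells, and each line is a single subline. Whether replicates were grown separately is not in the labels. P-values therefore speak only of the spread among these libraries, part of which may be technical.

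Values are normalised reads, the read count of a gene divided by a single size factor for its library. They compare a gene between libraries, but not 1 gene with another, since they are not divided by gene length. A knockdown change is the mean log2(value + 1) of the 6 knockdown libraries minus that of the 3 controls of the line. The difference is the change in ARCaPM-DR minus the change in 22Rv1-DR, so a positive difference means a change that was more upward in ARCaPM-DR. Both were fitted with limma over all genes, with the replicate number within a line as a block. A value was called where the p adjusted by the Benjamini-Hochberg method was at most 0.05, and rose and fell are used here only of called changes.

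GATA2 is a zinc finger transcription factor that binds GATA motifs in DNA. In the luminal cells of the prostate it works as a pioneer factor, which opens chromatin for other regulators. A short hairpin RNA is processed into a small RNA that guides the cutting of matching transcripts, and it can also act on other transcripts that resemble its target.

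The lines differed in kind before any knockdown. The control libraries of 22Rv1-DR held KLK3, which encodes prostate-specific antigen, at 105 ± 14.6 normalised reads (SD, n = 3). In ARCaPM-DR controls KLK3 stood at 0. The mesenchymal filament gene VIM stood at 89.9 ± 49.3 in 22Rv1-DR controls and at 47215 ± 7786 in ARCaPM-DR controls, and the mesenchymal factor ZEB1 at 5.24 ± 4.22 and 1694 ± 75.3. The epithelial adhesion gene CDH1 ran the other way, at 618 ± 56.8 and 32.1 ± 7.76. Endothelial marker genes and the white blood cell marker PTPRC were at or near 0, with PTPRC at 1.70 ± 1.35 and 0.441 ± 0.763.

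Depth ran from 9.996 to 15.885 M recovered reads in 22Rv1-DR and from 3.436 to 19.396 M in ARCaPM-DR, where shGATA2a replicate 3 was the shallowest. Control replicate 3 of 22Rv1-DR stood apart from the other libraries, with a weight of 0.074 in a fit that weights libraries by their fit. Of 288078 values above 0 in the 18 libraries, 99.945% were whole reads within 0.005 reads. The other 158 values lay in 57 genes, and 116 of them were in 22Rv1-DR controls. No source used here says how these came about, and genes that hold one are marked where they are named.

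The targeted gene was checked first. In ARCaPM-DR, GATA2 stood at 173, 153 and 145 normalised reads in the controls, at 26.4, 30.9 and 46.6 with shGATA2a and at 17.3, 20.1 and 21.7 with shGATA2b. The controls of 22Rv1-DR held 3444, 4307 and 3052, the shGATA2a libraries 966, 1348 and 840, and the shGATA2b libraries 806, 1738 and 1101. All 6 knockdown libraries lay below all 3 controls in each line, at a control level that was far higher in 22Rv1-DR. GATA2 fell by 2.56 on the log2 scale in ARCaPM-DR and by 1.71 in 22Rv1-DR, and the difference was -0.85 ± 0.23 (SE; limma, adjusted p = 0.031). With shGATA2a alone the difference was -0.40 (adjusted p = 0.406) and with shGATA2b alone it was -1.31 (adjusted p = 0.00992). In 22Rv1-DR 7 of its 9 values were not whole reads, and without the block the adjusted p was 0.233. The call was also lost in 10 of the 18 fits that left out 1 library.

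IGF2, an insulin-like growth factor that signals through the receptors IGF1R and INSR, fell in both lines. Its ARCaPM-DR controls held 189, 173 and 183 normalised reads, against 28.8, 17.0 and 23.3 with shGATA2a and 35.0, 27.5 and 37.2 with shGATA2b. The 22Rv1-DR controls held 94.7, 78.9 and 116, against 18.9, 14.6 and 16.2, and 8.44, 26.3 and 29.3. No knockdown library reached a control in either line. The difference was -0.32 (95% interval from -1.18 to 0.55; adjusted p = 0.669), an interval wide enough to hold a response more than 1 log2 unit apart. The nuclear pore gene POM121 and the proliferation factor FOXM1 also fell in both lines, with differences of -0.25 (interval from -0.59 to 0.09) and 0.16 (interval from -0.10 to 0.41) that were not called. IGF2, POM121 and FOXM1 hold values that were not whole reads, and POM121 shares reads with a near-identical copy.

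KLK3 was measurable in 22Rv1-DR alone, and it fell there. It stood at 98.9, 121 and 93.7 normalised reads in the controls, at 24.9, 47.5 and 44.4 with shGATA2a and at 25.0, 60.4 and 47.3 with shGATA2b. Of these 22Rv1-DR values, 1 was not whole reads. All 9 ARCaPM-DR libraries held 0 reads, which allows up to 3 reads in each. Its difference of 1.37 ± 0.32 (limma, adjusted p = 0.0162) is therefore the 22Rv1-DR change alone, and edgeR, a count model on the recovered reads, gave an adjusted p of 1 and DESeq2 one of 0.425. The insulin-like growth factor receptors IGF1R (difference -0.66, interval from -1.20 to -0.12) and INSR (-0.20, interval from -0.54 to 0.14) and the Rac exchange factor PREX1 (0.91, interval from -0.08 to 1.91) had no called difference. PREX1 was near 0 in ARCaPM-DR, with control values of 5.29, 5.26 and 1.28, against 4269, 3912 and 5768 in 22Rv1-DR.

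CALCRL and MTHFD1 moved the same way in both lines and further in ARCaPM-DR. CALCRL, the receptor for adrenomedullin and calcitonin gene-related peptide, stood at 9.25, 7.01 and 10.2 normalised reads in ARCaPM-DR controls, at 306, 162 and 303 with shGATA2a and at 204, 163 and 238 with shGATA2b. Controls in 22Rv1-DR stood at 0.86, 1.98 and 2.45 and its knockdown libraries between 3.86 and 12.4. The groups did not overlap in either line. CALCRL rose by 4.52 in ARCaPM-DR and 1.65 in 22Rv1-DR, a difference of 2.87 ± 0.42 (limma, adjusted p = 0.00104). Its 22Rv1-DR controls were near 0, so the size of that change and of the difference depends on the added 1. MTHFD1, a folate enzyme that feeds purine synthesis, stood at 3735, 3540 and 3297 in ARCaPM-DR controls and between 604 and 963 in the knockdown libraries. In 22Rv1-DR its controls held 1288, 886 and 620 and its knockdown libraries 341 to 483. It fell by 2.13 and 1.11, a difference of -1.03 ± 0.20 (adjusted p = 0.00627). MCFD2, a cargo receptor partner in the secretory pathway, rose by 1.77 and 1.16, and its difference of 0.61 missed the threshold (limma, adjusted p = 0.0532). It was called by edgeR (adjusted p = 0.0455) and DESeq2 (adjusted p = 0.0185), and without the 22Rv1-DR control that stood apart it was 0.89 (limma, adjusted p = 0.000166).

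Over all genes the knockdown response was broader in ARCaPM-DR. There 4533 of 14785 tested genes were called, 30.7% (2355 or 15.9% up and 2178 or 14.7% down), against 732 or 4.95% in 22Rv1-DR (321 or 2.17% up and 411 or 2.78% down). Without the replicate block the counts were 2125 and 80. Leaving out 1 library gave 2838 to 6179 calls in ARCaPM-DR, the fewest without its own Control replicate 3 and the most without Control replicate 3 of 22Rv1-DR. It gave 313 to 1382 in 22Rv1-DR, the fewest without its Control replicate 1 and the most without its Control replicate 2. The difference between the lines was called for 1559 genes, 10.5% of those tested, with 930 more upward and 629 more downward in ARCaPM-DR. Among the 1559, the change was larger in size in ARCaPM-DR for 1387 (89.0%). The median residual SD was 0.167 in ARCaPM-DR and 0.215 in 22Rv1-DR on the log2 scale, while the fit used a single spread for each gene over both lines. Within the 10184 genes with a mean of at least 50 in each line, the SD of the changes was 0.46 in ARCaPM-DR and 0.29 in 22Rv1-DR. Across those genes the changes of the lines had a Pearson correlation of 0.47 and a Spearman correlation of 0.46, given as a description over genes, which are not independent replicates.

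The count of called differences rests on the block. Without the replicate number as a block, 242 genes were called (1.64%), 164 more upward (1.11%) and 78 more downward (0.528%), and all 242 were among the 1559. Leaving out Control replicate 3 of 22Rv1-DR raised the count to 2474, and leaving out the 3 ARCaPM-DR libraries numbered 3, which include the shallowest, lowered it to 729. In this balanced design dropping the block leaves the differences themselves unchanged, so no sign could turn there. In the fits that left libraries out, each of the 1559 genes kept the sign of its difference. The 3 replicate-wise changes of ARCaPM-DR lay on one side of all 3 of 22Rv1-DR for 1545 of the 1559 genes, against 26.2% of all tested genes. A gene is called when these changes differ much against their spread. The separation therefore follows largely from the call and is no further support for it. With 3 replicate numbers in a line, an exact two-sided permutation test of a single gene cannot go below p = 0.1, so the calls rest on limma's fit across genes.

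The 1559 genes fell into patterns that were uneven in size. For 1242 the ARCaPM-DR change was called and the 22Rv1-DR change was not, for 76 the reverse held, and for 74 neither change was called alone. In 132 genes both changes were called in the same direction with unequal size. In 35 genes, 0.237% of those tested, the changes were called in opposite directions. Conversely, 475 genes were called in both lines, 440 of them in the same direction, and 308 of these 440 had no called difference. A mean of at least 50 in each line was reached by 1260 of the 1559, and 35 of them hold a value that was not whole reads.

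**Figure D1:**
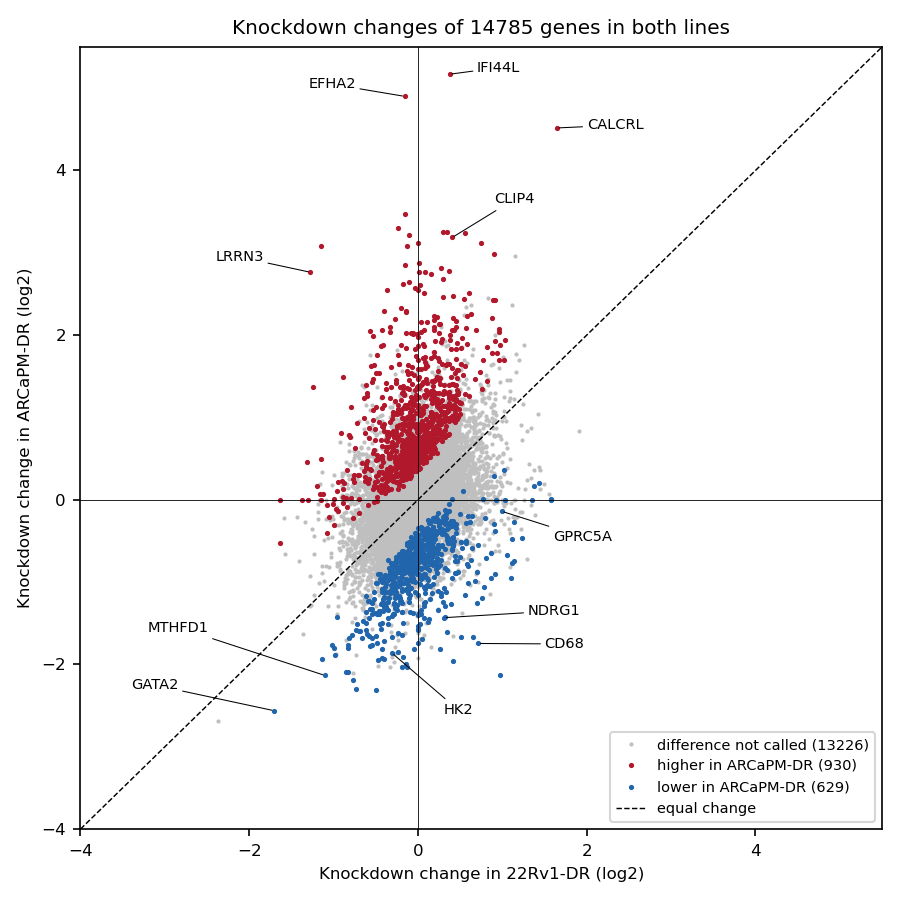
Knockdown change of each of 14785 genes in 22Rv1-DR (horizontal axis, log2) and in ARCaPM-DR (vertical axis, log2); points are genes, and the dashed line marks equal change. The 930 genes with a higher and 629 with a lower called change in ARCaPM-DR lie above and below the line, and most spread along the vertical axis.

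The largest differences were taken among called genes that reached a mean of 50 in each line and held only whole reads. That mean covers control and knockdown libraries together. EFHA2 and IFI44L were near 0 in ARCaPM-DR controls and reached it there only through their knockdown libraries. Their 3 replicate-wise changes in ARCaPM-DR also had to lie on one side of the 3 in 22Rv1-DR. Among these genes the largest positive differences belonged to EFHA2, IFI44L, CLIP4, FLRT3, SCG2, TC2N, HMGN5, PLSCR4, PCDH10 and COL5A2. These 10 rose in ARCaPM-DR and none was called in 22Rv1-DR. EFHA2 (now MICU3), a regulator of mitochondrial calcium uptake, stood at 3.97, 4.38 and 0.64 normalised reads in ARCaPM-DR controls, at 160, 165 and 42.8 with shGATA2a and at 78.5, 186 and 77.7 with shGATA2b. The controls of 22Rv1-DR held 95.5, 97.2 and 231, the shGATA2a libraries 94.2, 92.6 and 155, and the shGATA2b libraries 107, 108 and 151. Of the 6 ARCaPM-DR knockdown libraries, 3 came into the range of 22Rv1-DR and 3 stayed below it, and all were above their controls. In 22Rv1-DR knockdown and control overlapped. The change was 4.90 in ARCaPM-DR and -0.16 in 22Rv1-DR, a difference of 5.06 ± 0.36 (95% interval from 4.28 to 5.84; adjusted p = 8.02e-06). With ARCaPM-DR controls near 0, the size of this difference depends on the added 1.

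CLIP4, a microtubule-associated protein of the CAP-Gly family, stood at 79.3, 24.5 and 127 normalised reads in ARCaPM-DR controls, at 538, 215 and 913 with shGATA2a and at 774, 411 and 1157 with shGATA2b. Controls in 22Rv1-DR stood at 232, 272 and 270 and its knockdown libraries at 273 to 439. The libraries of a replicate number moved together in ARCaPM-DR, with number 2 lowest in all 3 groups. Its changes were 3.19 and 0.41, a difference of 2.78 ± 0.21 (adjusted p = 1.12e-05). FLRT3, an adhesion and guidance protein of the cell surface, showed the same order of replicate numbers, with 72.7, 14.9 and 108 in ARCaPM-DR controls and 98.5 to 874 in the knockdown libraries. In 22Rv1-DR it held 286 to 393 in the controls and 332 to 493 in the knockdown libraries. Its knockdown values overlapped those of the controls in both lines when read across numbers, and within each number of ARCaPM-DR every knockdown library was higher. Its difference was 2.54 ± 0.21 (adjusted p = 2.57e-05), but it was not called without the block.

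The other 6 of this group spanned secretory, chromatin and matrix genes. The secretory granule protein gene SCG2 (difference 2.47), the C2-domain gene TC2N (2.06), the nucleosome-binding gene HMGN5 (2.04), the phospholipid scramblase gene PLSCR4 (1.92) and the protocadherin gene PCDH10 (1.91) rose by 1.54 to 2.52 in ARCaPM-DR. COL5A2, a fibrillar collagen chain, stood at 5062, 9723 and 3629 normalised reads in ARCaPM-DR controls, at 14917, 18898 and 7730 with shGATA2a and at 14313, 19702 and 9019 with shGATA2b. In 22Rv1-DR its controls held 198, 128 and 665, and the last of these, from the control that stood apart, was above every other 22Rv1-DR library. Its difference was 1.88 ± 0.38 (adjusted p = 0.00787), and without that control it was 1.27 (limma, adjusted p = 0.0011). Without the block 6 of the 10 were called, namely EFHA2, IFI44L, CLIP4, TC2N, PLSCR4 and PCDH10, and all 10 were called when any single library was left out and by edgeR and DESeq2.

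Under the same conditions, the largest negative differences belonged to CD68, FAM167A, SLCO5A1, ZNF25, NDRG1, RORA, KLF4, HK2, PARK7 and STK40, all of which fell in ARCaPM-DR. CD68, a lysosomal membrane glycoprotein best known from macrophages, stood at 821, 1333 and 948 normalised reads in ARCaPM-DR controls, at 282, 698 and 358 with shGATA2a and at 188, 326 and 173 with shGATA2b. In 22Rv1-DR it held 52.5, 144 and 54.6 in the controls and 79.2 to 182 in the knockdown libraries. The ARCaPM-DR groups did not overlap and the 22Rv1-DR groups did. The changes were -1.75 and 0.72, a difference of -2.46 ± 0.34 (adjusted p = 0.00076). CD68 was the only 1 of 8 blood marker genes with a mean of at least 10 in any group, and the summed level of that list, 832 to 1339 in ARCaPM-DR controls and 178 to 715 in its knockdown libraries, followed it. CD3E and TYROBP, which mark lymphoid and myeloid cells, were at 0 in every group.

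PARK7, a protein that protects cells from oxidative stress, stood at 2602, 2336 and 2358 normalised reads in ARCaPM-DR controls and at 501 to 712 in the knockdown libraries. Its 22Rv1-DR controls held 2346, 2414 and 1210, and its knockdown libraries 1308 to 1758. Control replicate 3 was the lowest library of that line and made the 22Rv1-DR groups overlap. The difference was -1.54 ± 0.21 (adjusted p = 0.000617). STK40, a pseudokinase, fell in both lines, by 1.93 and 0.43, with a difference of -1.50 ± 0.13 (adjusted p = 3.11e-05). FAM167A (-2.07), the organic anion transporter family gene SLCO5A1 (-1.94), the zinc finger gene ZNF25 (-1.81), the nuclear receptor RORA (-1.60) and the factor KLF4 (-1.58), which acts in epithelial differentiation, fell in ARCaPM-DR and were not called in 22Rv1-DR. NDRG1 and HK2 are described with the glycolytic genes below. Of the 10, CD68, FAM167A, ZNF25, NDRG1, PARK7 and STK40 were also called without the block.

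**Figure D2:**
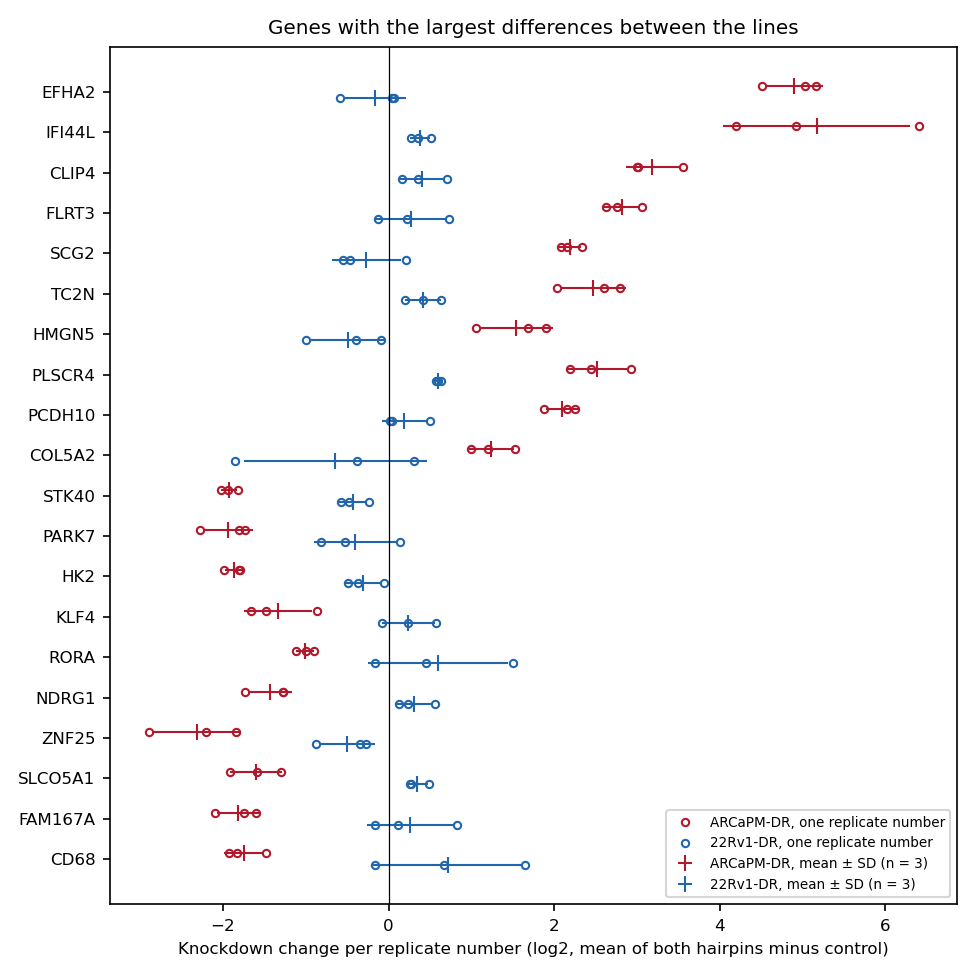
Knockdown change per replicate number (log2, mean of both hairpins minus control) for the 10 genes with the largest positive and the 10 with the largest negative difference; open circles are single replicate numbers and bars give mean ± SD (n = 3). That the 3 circles of ARCaPM-DR lie on one side of the 3 circles of 22Rv1-DR was a condition for choosing these genes.

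Gene lists of known processes were then read against the shares over all tested genes, 6.29% with a higher and 4.25% with a lower called change in ARCaPM-DR, and against the median difference of all tested genes, 0.02. Within a list, up to 3 members with the smallest adjusted p were named by rule, and further members named here were chosen after their values were seen. In bulk RNA, fewer cells that hold a transcript and less of it per cell cannot be told apart.

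Interferon-stimulated genes, which are switched on through STAT factors after interferon signalling and take part in antiviral defence, held the highest share of called members, 13 of 39. Of these, 10 were higher and 3 lower in ARCaPM-DR, and the median difference of the list was 0.34. In ARCaPM-DR 11 members rose and 5 fell, beside 15.9% up and 14.7% down over all tested genes. None rose in 22Rv1-DR, where 1 fell, and there the shares over all tested genes were 2.17% up and 2.78% down. IFI44L stood at 0, 0 and 5.76 normalised reads in ARCaPM-DR controls, at 116, 30.9 and 167 with shGATA2a and at 60.1, 27.6 and 90.1 with shGATA2b. The 22Rv1-DR controls held 95.5, 70.4 and 51.3, and its knockdown libraries 64.6 to 133. The gene thus was nearly absent from ARCaPM-DR controls and reached a level close to that of 22Rv1-DR after knockdown. Its difference was 4.79 ± 0.43 (adjusted p = 5.5e-05), and because 2 of the 3 controls held no read the size depends on the added 1.

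GBP1, an interferon-induced GTPase, stood at 29.1, 13.1 and 46.7 normalised reads in ARCaPM-DR controls, at 161, 50.8 and 117 with shGATA2a and at 384, 153 and 367 with shGATA2b. In 22Rv1-DR all 9 libraries lay between 4.96 and 11.7. The ARCaPM-DR groups did not overlap, and shGATA2b gave the higher values. The difference was 2.59 ± 0.31 (adjusted p = 0.000259). IFI6, a small membrane protein that delays apoptosis, held 91.2, 84.1 and 100 in ARCaPM-DR controls, 488, 249 and 358 with shGATA2a and 167, 145 and 153 with shGATA2b, so here shGATA2a gave the higher values. The controls of 22Rv1-DR held 31.0, 54.6 and 63.6 and its knockdown libraries 26.1 to 51.4. The difference was 1.72 ± 0.29 (adjusted p = 0.00254). The neighbouring growth-restraining genes SAMD9L (2.53) and SAMD9 (1.60), PARP9 (0.77), USP18 (0.91), IFIT5 (0.81) and OAS3 (0.70) were among the other higher calls. OASL (-1.35), ISG20 (-0.86) and IFIT2 (-0.83), each induced by interferon too, were lower. IFI44L, GBP1 and IFI6 were called without the block.

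The promoters of the leading members are shown because interferon-stimulated genes are known by a short element in them, here searched on both strands as GAAA, any 2 bases and GAAA again. Each sequence below is the 250 bases before the gene's start from RefSeq (GRCh38.p14), printed 5′ to 3′ on the gene's strand with matches in capitals. The window of IFI44L (chr1:78620198-78620447, plus strand) held 2 matches, that of IFI6 (chr1:27672193-27672442, minus strand) 3, that of GBP1 (chr1:89065209-89065458, minus strand) 1 and that of SAMD9 (chr7:93117980-93118229, minus strand) 1, while that of SAMD9L held 0.
IFI44L: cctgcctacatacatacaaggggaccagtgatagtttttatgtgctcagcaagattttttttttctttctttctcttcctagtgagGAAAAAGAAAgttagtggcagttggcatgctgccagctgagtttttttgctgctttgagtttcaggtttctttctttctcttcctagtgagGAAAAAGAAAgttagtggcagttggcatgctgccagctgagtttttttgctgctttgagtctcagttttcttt
IFI6: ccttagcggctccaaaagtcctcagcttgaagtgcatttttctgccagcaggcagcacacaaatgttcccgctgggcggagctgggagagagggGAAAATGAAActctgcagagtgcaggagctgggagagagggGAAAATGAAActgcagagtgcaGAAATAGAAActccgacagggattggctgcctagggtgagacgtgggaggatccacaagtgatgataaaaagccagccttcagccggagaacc
GBP1: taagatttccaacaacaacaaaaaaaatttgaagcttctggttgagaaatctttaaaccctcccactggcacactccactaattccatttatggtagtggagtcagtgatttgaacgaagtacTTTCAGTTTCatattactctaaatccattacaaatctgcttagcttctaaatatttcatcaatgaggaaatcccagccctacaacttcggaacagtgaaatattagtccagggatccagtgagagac
SAMD9: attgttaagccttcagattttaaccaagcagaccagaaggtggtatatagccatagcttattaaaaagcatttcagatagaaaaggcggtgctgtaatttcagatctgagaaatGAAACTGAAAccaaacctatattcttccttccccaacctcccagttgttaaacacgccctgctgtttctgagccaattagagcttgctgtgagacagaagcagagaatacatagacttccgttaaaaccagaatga

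Over windows of 300 bases, 250 before and 50 after a start, the element was in 3.57% of the 35116 windows of the table. It was in 64.1% of the 39 windows of the tested interferon-stimulated genes that matched and in 77.8% of the 9 windows of those called higher. Among all genes called higher it was in 4.21% of windows, and among those called lower in 1.90%, beside 2.90% for all tested genes. A match is a description of the letters in the window, not a measured site.

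Genes of glycolysis and of the response to low oxygen, which carry glucose into lactate and are targets of hypoxia-inducible factors, moved the other way. Of 34 tested members, 10 were lower and 1 was higher in ARCaPM-DR, with a median difference of -0.28. In ARCaPM-DR 19 members fell and 4 rose, beside 14.7% down and 15.9% up over all tested genes. In 22Rv1-DR none rose and 1 fell, beside 2.17% up and 2.78% down. HK2, the hexokinase that commits glucose to glycolysis, stood at 1571, 3503 and 3208 normalised reads in ARCaPM-DR controls, at 497, 1199 and 964 with shGATA2a and at 403, 849 and 679 with shGATA2b. The 22Rv1-DR controls held 9581, 13513 and 27446 and its knockdown libraries 8966 to 19579. The groups were separate in ARCaPM-DR and overlapped in 22Rv1-DR. HK2 fell by 1.86 in ARCaPM-DR, and its difference was -1.56 ± 0.12 (adjusted p = 1.63e-05).

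NDRG1, a stress-responsive gene that is induced by low oxygen and by androgen, stood at 689, 770 and 1002 normalised reads in ARCaPM-DR controls, at 348, 396 and 381 with shGATA2a and at 231, 253 and 235 with shGATA2b. Controls in 22Rv1-DR stood at 7431, 12993 and 13905 and the knockdown libraries at 10938 to 16434. All ARCaPM-DR knockdown libraries lay below their controls, while all 6 in 22Rv1-DR lay within the range of theirs or above it. The difference was -1.74 ± 0.14 (adjusted p = 2.45e-05). PDK1, the kinase that keeps pyruvate out of the mitochondrion, had a difference of -1.32, and PFKFB4 (-1.15), ENO2 (-0.98), CA12 (-0.94), GPI (-0.86), the glucose transporter SLC2A1 (-0.75), ALDOA (-0.71) and GAPDH (-0.71) followed. GAPDH has many pseudogene copies, so its counts are less certain. The only higher member was ADM (1.27), which encodes adrenomedullin, a ligand of the CALCRL receptor. NDRG1 and PDK1 were called without the block, and HK2 was not.

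Mitotic genes, which build the spindle and divide the chromosomes, fell more widely in 22Rv1-DR by count. Of 53 tested members, 13 were higher and 1 lower in ARCaPM-DR, with a median difference of 0.23. Members fell in both lines, 27 of them in 22Rv1-DR (median change -0.40) and 15 in ARCaPM-DR (median change -0.16). Of all tested genes, 2.78% fell in 22Rv1-DR and 14.7% in ARCaPM-DR. Values that were not whole reads were held by 8 members, all of which fell in 22Rv1-DR, and of these CENPF and FOXM1 fell in ARCaPM-DR too. KIF11, the motor that separates spindle poles, stood at 2206, 2151 and 2014 normalised reads in ARCaPM-DR controls, at 3140, 2456 and 3199 with shGATA2a and at 2145, 2211 and 2629 with shGATA2b. In 22Rv1-DR the controls held 1086, 662 and 732, the shGATA2a libraries 743, 519 and 520, and the shGATA2b libraries 908, 579 and 569. Libraries overlapped between control and knockdown in both lines. KIF11 rose by 0.29 in ARCaPM-DR and fell by 0.37 in 22Rv1-DR, a difference of 0.66 ± 0.13 (adjusted p = 0.00612). The chromosome motor KIF4A (0.71) and the cytokinesis gene ANLN (0.58) were also higher. Of the 13 higher members, PBK, CDK1, NUSAP1, KIF14, PTTG1 and RACGAP1 hold values that were not whole reads, and these 6 had the largest differences, 0.86 to 1.20. The spindle checkpoint gene MAD2L1 was the lower one (-0.92). Among 48 replication genes 3 were higher and 1 lower, and DUT, which clears dUTP, fell by 1.93 and 1.13.

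Drug efflux pumps and tubulin genes, read here because the lines resist chemotherapy, held 5 higher and 0 lower members of 26, with a median difference of 0.08. STMN1, the tubulin-sequestering protein stathmin, stood at 2185, 1684 and 2268 normalised reads in ARCaPM-DR controls, at 7476, 4581 and 8799 with shGATA2a and at 6905, 5313 and 8349 with shGATA2b. The controls of 22Rv1-DR held 1226, 910 and 935 and the knockdown libraries 804 to 1497. Every ARCaPM-DR knockdown library was above every control, and the 22Rv1-DR groups overlapped. The difference was 1.67 ± 0.14 (adjusted p = 3.53e-05). ABCB1, the efflux pump P-glycoprotein that exports taxanes, held 7016, 6475 and 7745 in ARCaPM-DR controls, 19853, 12168 and 18928 with shGATA2a and 23005, 16055 and 27571 with shGATA2b. In 22Rv1-DR its 9 libraries lay between 12379 and 18289, with control and knockdown mixed. It rose by 1.43 in ARCaPM-DR, from control levels below those of every 22Rv1-DR library, and the knockdown libraries ran from just under the 22Rv1-DR range to above it. The difference was 1.36 ± 0.17 (adjusted p = 0.000312). The pumps ABCC2 (0.82) and ABCC4 (0.60) and the tubulin TUBA1A (0.81) completed the 5. STMN1 and ABCB1 were called without the block.

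**Figure D3:**
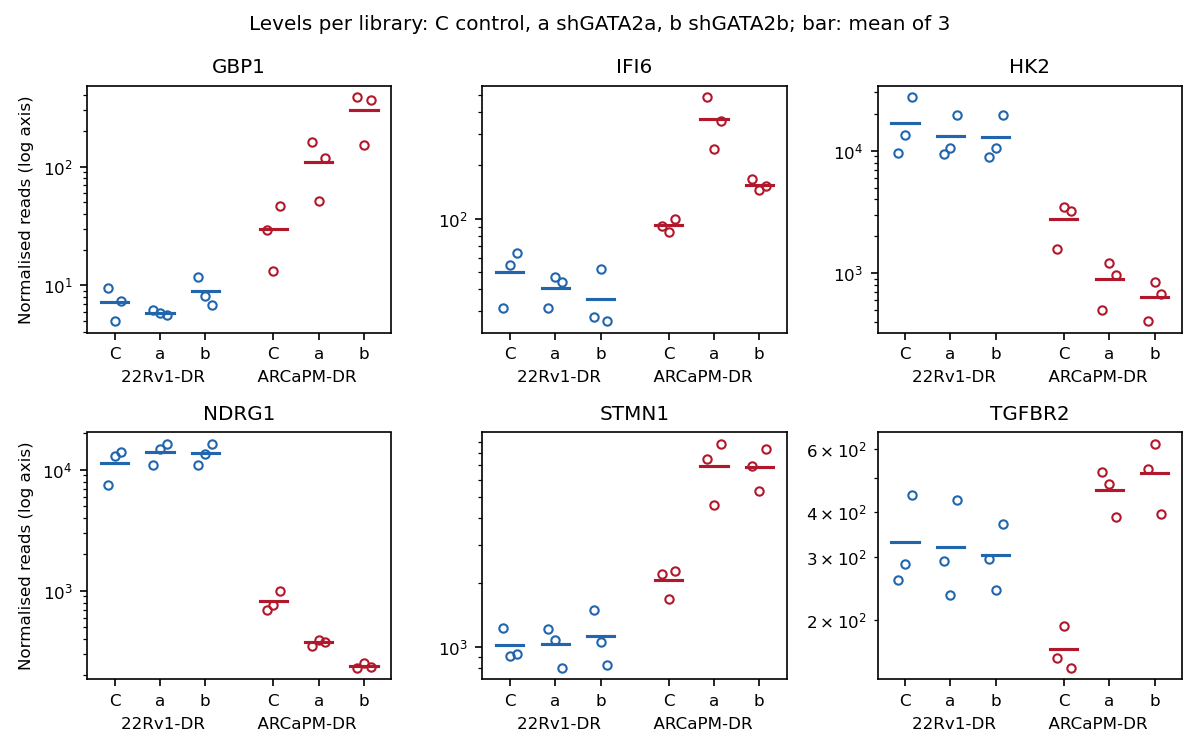
Normalised reads (log axis) of GBP1, IFI6, HK2, NDRG1, STMN1 and TGFBR2 in each library of 22Rv1-DR and ARCaPM-DR, for control (C), shGATA2a (a) and shGATA2b (b); circles are libraries and bars are means of 3. In ARCaPM-DR the 6 knockdown libraries of each gene lie apart from the 3 controls, and in 22Rv1-DR they overlap.

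Genes of protein folding in the endoplasmic reticulum and of the integrated stress response, through which a cell adjusts synthesis to unfolded protein or missing amino acids, held 8 higher and 1 lower member of 32. The median difference was 0.30. PDIA4, a disulfide isomerase, stood at 2649, 2875 and 2327 normalised reads in ARCaPM-DR controls, at 6632, 5820 and 6051 with shGATA2a and at 7886, 7432 and 7658 with shGATA2b. Controls in 22Rv1-DR stood at 1808, 1985 and 2870 and its knockdown libraries at 1984 to 2324. The change was 1.40 in ARCaPM-DR and 0.03 in 22Rv1-DR, a difference of 1.37 ± 0.16 (adjusted p = 0.00022). The serine synthesis enzymes PSAT1 (0.77) and PHGDH (0.82) and the chaperone HSP90B1 (0.84) fell in 22Rv1-DR, PSAT1 by 0.43, PHGDH by 0.80 and HSP90B1 by 0.44. SEL1L (0.65), which works in the removal of misfolded proteins, rose in both. SLC7A11 (0.91), a cystine transporter, rose in both and holds values that were not whole reads. ATF3 was the lower member (-0.51). PDIA4 alone of this list was called without the block.

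Among 28 cargo receptors and vesicle coat genes of the secretory pathway, 2 were higher and 3 lower, with a median difference of -0.15. SURF4, a cargo receptor, stood at 4036, 4501 and 3940 normalised reads in ARCaPM-DR controls and at 1510 to 2111 in the knockdown libraries. In 22Rv1-DR its controls held 2043, 1966 and 1889 and its knockdown libraries 1378 to 1758. The groups were separate in each line, but the 22Rv1-DR change of -0.29 was not called (adjusted p = 0.0676). The difference was -0.96 ± 0.12 (adjusted p = 0.000312). LMAN1, the receptor that works with MCFD2, had a difference of -0.71, opposite in sign to MCFD2. Of 18 heat shock chaperones, 1 was higher and 3 lower. HSP90AA1 rose by 1.06 in ARCaPM-DR with a difference of 0.89, while its close relative HSP90AB1 fell in both lines, by 1.01 and 0.50, with a difference of -0.51. These 2 have processed pseudogenes, so reads may be split between copies.

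TGFBR2, a receptor for transforming growth factor beta, stood at 157, 193 and 147 normalised reads in ARCaPM-DR controls, at 518, 479 and 389 with shGATA2a and at 529, 622 and 395 with shGATA2b. The controls of 22Rv1-DR held 259, 287 and 447 and the knockdown libraries 235 to 434. The groups did not overlap in ARCaPM-DR. The difference was 1.62 ± 0.16 (adjusted p = 0.000107), and the gene was called without the block. The ligand TGFB2 rose by 0.77 in ARCaPM-DR and fell by 0.36 in 22Rv1-DR, a difference of 1.12. Over the whole list of transforming growth factor beta and bone morphogenetic protein genes, 4 of 33 were higher and 3 lower, with a median difference of -0.17. The partner receptor TGFBR1 (-1.36), the ligand TGFB1 (-0.85) and SMAD9 (-0.91) were the lower ones, so receptors and ligands of the pathway were split in direction.

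Of 19 integrins, the receptors by which cells hold on to matrix, 4 were higher and 1 lower, with a median difference of 0.34. ITGA2, a collagen-binding chain, held 6884, 8448 and 7081 normalised reads in ARCaPM-DR controls, 14799, 14042 and 17898 with shGATA2a and 9948, 11544 and 12050 with shGATA2b. Its 22Rv1-DR controls held 962, 819 and 837 and its knockdown libraries 625 to 791. ITGA2 rose by 0.82 in ARCaPM-DR, its change of -0.26 in 22Rv1-DR was not called although the groups were separate, and the difference was 1.08 ± 0.13 (adjusted p = 0.00027). ITGAV (0.65), ITGA1 (0.63) and ITGB8 (1.10) were the other higher members, and ITGA5 (-0.39) the lower one. Among 25 mesenchymal genes 3 were higher and 1 lower, with a median difference of 0.03. SPARC (3.01) and THBS1 (0.95), both secreted matrix proteins, rose in ARCaPM-DR and had changes of -0.15 and -0.23 in 22Rv1-DR that were not called. Fibronectin FN1 (0.69) rose by 0.32 in ARCaPM-DR and fell by 0.37 in 22Rv1-DR.

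The summed level of a fibroblast marker list of 7 genes was higher in ARCaPM-DR knockdown libraries than in its controls. It ran from 2368 to 4777 normalised reads in ARCaPM-DR controls and from 5691 to 14933 in its knockdown libraries. In 22Rv1-DR the sum ran from 1387 to 4307 in controls and from 1303 to 1994 in knockdown libraries. Only 2 or 3 of the genes reached a mean of 10 in an ARCaPM-DR group, so few genes carry the sum. The collagen gene COL3A1 was the only called one of 3 tested members (2.03), and PDGFRB and THY1 of that list were at 0 in every ARCaPM-DR group. The part of this in the matrix results was not tested.

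Genes of epithelial junctions held 4 higher and 1 lower member of 30, with a median difference of 0.31. CLDN1, a tight junction claudin, stood at 1285, 1281 and 1719 normalised reads in ARCaPM-DR controls, at 8690, 5596 and 10498 with shGATA2a and at 3483, 2973 and 4358 with shGATA2b. Controls in 22Rv1-DR stood at 1071, 1323 and 703 and its knockdown libraries at 844 to 1782. All 6 knockdown libraries were above the controls in ARCaPM-DR, those with shGATA2a furthest. The difference was 1.64 ± 0.32 (adjusted p = 0.00616). EPCAM, an epithelial adhesion molecule, held 263, 477 and 263 in ARCaPM-DR controls and 459 to 887 in the knockdown libraries, with a difference of 1.16, and MARVELD3 (1.32) and DSG2 (0.53) were also higher. CLDN4 was lower (-0.64). Of these, CLDN1, EPCAM and MARVELD3, were called without the block.

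Genes of the NF-kB pathway, the rapid regulator of inflammation, held 6 lower and 1 higher member of 27, with a median difference of -0.26. NFKBIA, the inhibitor that NF-kB itself induces, stood at 3180, 3514 and 2274 normalised reads in ARCaPM-DR controls, at 1913, 1983 and 1695 with shGATA2a and at 1353, 1423 and 1293 with shGATA2b. In 22Rv1-DR its controls held 284, 292 and 373 and its knockdown libraries 338 to 389. It fell in ARCaPM-DR with no overlap, and the difference was -1.11 ± 0.15 (adjusted p = 0.000568). The subunits RELA (-0.85) and RELB (-0.72), the co-factor BCL3 (-0.86) and the cytokines CSF1 (-1.77) and CCL5 (-1.85) were also lower, and the chemokine CCL20 (1.70), which was at 0 in 22Rv1-DR, was higher. CSF1 was low in both lines, at 43.6, 19.3 and 33.9 in ARCaPM-DR controls and at most 14.4 in every 22Rv1-DR library. NFKBIA was the member called without the block.

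Feedback genes of the ERK pathway split, with 2 of 34 higher and 3 lower. SPRY1, an inhibitor of receptor tyrosine kinase signalling, had a difference of 1.34, and the phosphatases DUSP4 and DUSP1 had differences of -1.57 and -0.87. DUSP4 was low in ARCaPM-DR, at 23.8, 16.6 and 19.2 normalised reads in controls and 3.89 to 9.95 in the knockdown libraries, against 249 to 427 in all 22Rv1-DR libraries. Among 27 receptor tyrosine kinases, ERBB4 (1.36) and MET (0.90) were higher and EPHB2 (-1.05) lower, and MET holds a value that was not whole reads. EPHB2 lost its call in 13 of the 18 fits that left out 1 library, and without the 22Rv1-DR control that stood apart its difference was -0.68 (limma, adjusted p = 0.0867). In the insulin-like growth factor axis 5 of 23 were higher and 1 lower, with a median difference of 0.22.

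IGF1, a ligand of IGF1R, was the leading member of that axis. It stood at 21.2, 5.26 and 16.6 normalised reads in ARCaPM-DR controls, at 229, 37.8 and 198 with shGATA2a and at 42.7, 38.9 and 76.6 with shGATA2b. All 22Rv1-DR libraries were between 1.16 and 5.41. Knockdown libraries lay above the controls in ARCaPM-DR, and the difference was 2.92 ± 0.51 (adjusted p = 0.00317). With shGATA2b alone it was 2.02 and missed the threshold (adjusted p = 0.0539). So in ARCaPM-DR the ligand IGF1 rose while the ligand IGF2 fell. STC2 (0.69) and the adaptor GRB10 (0.48) were higher, and the RNA-binding protein gene IGF2BP2 (-0.55) was lower.

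Of 23 genes around PAK kinases and Rac, 3 were higher and 3 lower. RHOA, a small GTPase that controls the actin skeleton, fell in both lines, from 10480, 9072 and 10730 normalised reads to 2791 to 4586 in ARCaPM-DR and from 7194, 7338 and 6549 to 3577 to 4889 in 22Rv1-DR. Neither line showed overlap. Its changes were -1.59 and -0.73, a difference of -0.85 ± 0.14 (adjusted p = 0.00199). Its relative RHOB had a difference of 1.02, opposite in sign, and the kinase PAK6 one of -1.13. PAK4 (-1.27) holds values that were not whole reads. Among 30 apoptosis regulators, 5 were higher and 3 lower. PMAIP1, the BH3-only killer NOXA, stood at 665, 411 and 912 in ARCaPM-DR controls and at 691 to 1682 in the knockdown libraries, and at 489, 439 and 658 and at 347 to 531 in 22Rv1-DR. Its libraries overlapped within each line, but the changes per replicate number did not, and the difference was 1.13 ± 0.13 (adjusted p = 0.000238). APAF1 (0.69), MCL1 (0.52), XIAP (0.56) and HRK (1.12) were higher, and BCL2L11 (-0.59) and TNFRSF10B (-0.48) were among the lower ones, so promoters and inhibitors of cell death were found on both sides.

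Several other lists stayed near or below the 10.5% called over all tested genes. Fatty acid synthesis genes (18.8%), p53 targets (14.3%) and calcitonin family genes (25.0%) lay above it, each with few called members. Of 73 cytoplasmic ribosomal protein genes 1 was called, RPLP0 (-0.73), a gene with processed copies, and without the 22Rv1-DR control that stood apart it was -0.49 and not called (limma, adjusted p = 0.0615). Of 58 respiratory chain subunits 2 were called, COX6C (0.62) and UQCRC2 (-1.38). When 1 library was left out, RPLP0 lost its call in 14 and COX6C in 12 of the 18 fits. UQCRC2, a core subunit of complex III, stood at 2003, 1946 and 1897 normalised reads in ARCaPM-DR controls and at 448 to 692 in the knockdown libraries, against 2141, 2054 and 1537 and then 1254 to 1494 in 22Rv1-DR. It thus stood apart from its list, whose median difference was -0.27. Replication-dependent histone genes, 29 tested, held no called difference (limma, adjusted over all genes). Of them 10 rose in ARCaPM-DR and 5 in 22Rv1-DR, with median changes of 0.62 and 0.50, while 15.9% and 2.17% of all tested genes rose. Of 26 cholesterol synthesis genes STARD4 (1.49) was higher and INSIG1 (-0.69) lower. Of 18 genes of antigen presentation ERAP1 (0.77) was higher and TAP1 (-0.58) lower, a split within the same pathway. Of 29 folate and nucleotide genes, MTHFD1 and PRPS2 (-0.75) were lower and ALDH1L2 (0.94) higher. Of 16 fatty acid synthesis genes, ACSL1 (-0.89) and SCD (-0.74) were lower and ME1 (0.76) higher. Of 28 p53 targets, RRM2B (-0.82), BTG2 (-0.74) and TNFRSF10B were lower and SESN1 (0.77) higher, and of 8 calcitonin family genes CALCRL and ADM were higher.

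Androgen-responsive genes and GATA factors were read as the genes closest to the targeted factor. Of 20 androgen-responsive genes, 2 were higher and 3 lower, with a median difference of -0.02. KLK3 and the pump ABCC4 were higher, and NDRG1, HOXB13 and TRPM8 (-1.73) lower. TRPM8, a cold-sensing ion channel, stood at 0 to 8.11 normalised reads in 22Rv1-DR and at 63.9 to 356 in ARCaPM-DR. Of 8 GATA factors and cofactors, GATA2 and GATA6 were lower. GATA6, a relative of GATA2, held 103, 52.6 and 85.1 in ARCaPM-DR controls and 23.8 to 77.7 in the knockdown libraries, and 309 to 463 in all 22Rv1-DR libraries. The difference was -0.79 ± 0.22 (adjusted p = 0.0374), with -0.38 for shGATA2a and -1.20 for shGATA2b. It was not called in 14 of the 18 fits that left out 1 library.

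**Figure D4:**
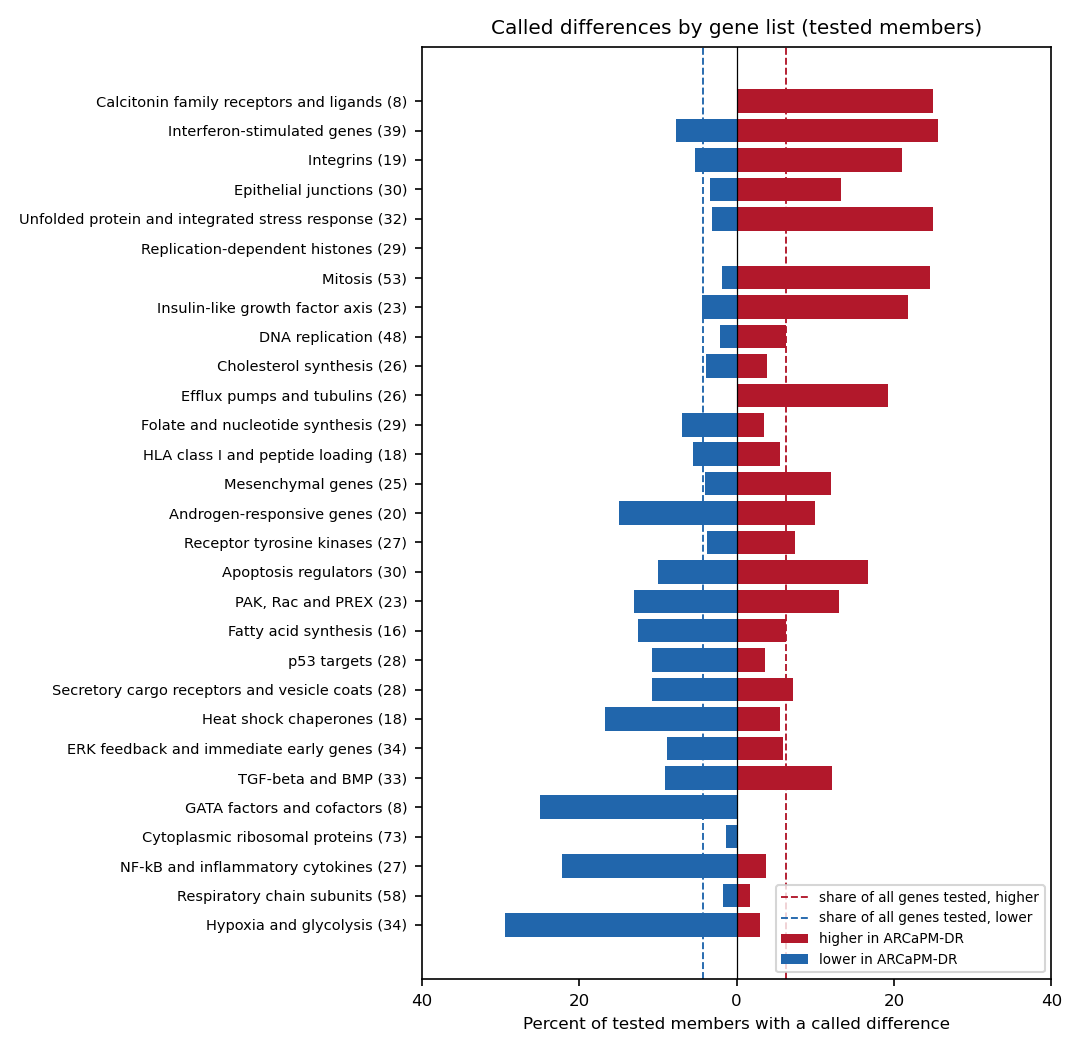
Percent of the tested members of each gene list (number in brackets) with a called difference, higher in ARCaPM-DR to the right and lower to the left; lists are ordered by their median difference, and dashed lines mark the shares of all tested genes, 6.29% and 4.25%. Interferon-stimulated genes, 10 of 39 higher, and hypoxia and glycolysis genes, 10 of 34 lower, have the largest share on each side among the process lists.

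The 35 genes called in opposite directions included 21 that rose in ARCaPM-DR and fell in 22Rv1-DR and 14 with the reverse. ASPH, a hydroxylase of the endoplasmic reticulum, stood at 17068, 15855 and 17476 normalised reads in ARCaPM-DR controls, at 25827, 21054 and 29546 with shGATA2a and at 23498, 20515 and 26150 with shGATA2b. The controls of 22Rv1-DR held 4569, 3418 and 3573, the shGATA2a libraries 3193, 2623 and 2793, and the shGATA2b libraries 2942, 2741 and 2865. No library crossed between control and knockdown in either line. ASPH rose by 0.53 and fell by 0.42, a difference of 0.95 ± 0.12 (adjusted p = 0.000384), and it was called for the difference without the block as well. CTGF, a matricellular protein that YAP and transforming growth factor beta induce, rose by 0.45 and fell by 0.67. CYP1B1, an estrogen-metabolising oxidase, rose by 0.47 and fell by 0.61, and IMPA1, an inositol phosphatase, rose by 0.51 and fell by 0.43. HSP90B1 and C1orf63 complete the 6 named on this side.

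Among the genes with the reverse pattern were the homeobox factor HOXB13 and the small heat shock protein HSPB1. HOXB13, which marks prostate identity, stood at 383, 515 and 353 normalised reads in ARCaPM-DR controls, at 282, 386 and 194 with shGATA2a and at 317, 343 and 243 with shGATA2b. Controls in 22Rv1-DR stood at 783, 677 and 354, against 1037, 928 and 584 with shGATA2a and 952, 877 and 611 with shGATA2b. Libraries overlapped across replicate numbers in each line, but within every number each knockdown library moved the same way. HOXB13 fell by 0.52 and rose by 0.50, a difference of -1.02 ± 0.15 (adjusted p = 0.00127). HSPB1 fell by 0.59 and rose by 0.64, and in 22Rv1-DR its controls ran from 1187 to 3686 and its knockdown libraries from 2826 to 4676. NUAK1 (-1.19), a kinase related to AMPK, the secreted protein TSKU (-1.07), TMEM184B (-1.02) and the RNA-binding protein MEX3A (-0.93) followed. The opposite pattern itself depends on calling a small change in each line: without the block 0 of the 35 kept it, and over the fits that left out 1 library the count ran from 12 to 52.

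**Figure D5:**
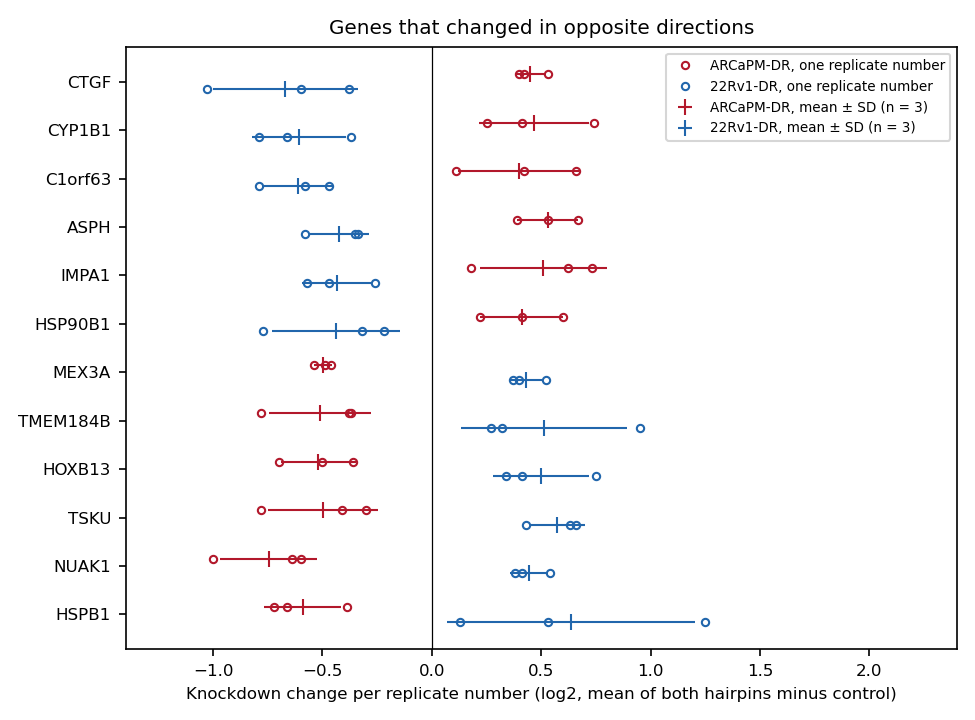
Knockdown change per replicate number (log2, mean of both hairpins minus control) for 12 genes called in opposite directions; open circles are single replicate numbers and bars give mean ± SD (n = 3). Every circle of a line lies on one side of 0 and every circle of the other line on the opposite side, which follows largely from the choice of these genes.

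For 76 genes the change was called in 22Rv1-DR and not in ARCaPM-DR. TRNP1, a nuclear protein known from neural progenitors, stood at 486, 401 and 513 normalised reads in 22Rv1-DR controls, at 249, 252 and 185 with shGATA2a and at 223, 239 and 180 with shGATA2b. In ARCaPM-DR its 9 libraries lay between 1525 and 2775, with control and knockdown mixed. It fell by 1.08 in 22Rv1-DR, and the difference was 1.02 ± 0.16 (adjusted p = 0.00156). GPRC5A, a retinoic acid-induced receptor, held 49.0, 143 and 161 in 22Rv1-DR controls, 124, 243 and 357 with shGATA2a and 109, 209 and 339 with shGATA2b. It rose in 22Rv1-DR, where both knockdown libraries of each number were above their own control, and the difference was -1.14 ± 0.15 (adjusted p = 0.000521). The neuroendocrine peptide precursor VGF (1.07), DZIP1L (0.92), PHGDH (0.82) and OAS3 (0.70) fell in 22Rv1-DR, and WIPI1 (-0.61), YPEL1 (-0.89) and CTSA (-0.79) rose there. These 7 were less stable: each lost its call in at least 1 and at most 15 of the 18 fits that left out 1 library. Leaving out the control of 22Rv1-DR that stood apart ended the calls of DZIP1L, PHGDH and OAS3.

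Some differences belonged to genes that were at a low level in 1 of the lines. Of the 1559, 51 had a mean of at least 50 in ARCaPM-DR and under 10 in 22Rv1-DR, and 38 had the reverse. LRRN3, a leucine-rich repeat membrane protein, stood at 39.7, 7.89 and 32.6 normalised reads in ARCaPM-DR controls and at 77.7 to 272 in the knockdown libraries, while all 22Rv1-DR libraries were at 3.97 or below. SPARC held 10.6, 28.0 and 12.2 in ARCaPM-DR controls, 94.3, 139 and 46.6 with shGATA2a and 185, 251 and 93.2 with shGATA2b, against at most 1.93 in 22Rv1-DR. SLIT2, a guidance ligand, was the more abundant in 22Rv1-DR, at 96.7 to 162 in 22Rv1-DR and rose in ARCaPM-DR from 0, 0 and 1.28 in the controls to 4.14 to 23.9. Differences of LRRN3 (4.04), SLIT2 (3.32), SPARC (3.01) and the receptor LPHN2 (2.95) were called without the block and in all fits that left out 1 library. Each of these genes was low in 1 line, so the size depends on the added 1. By edgeR the differences were 5.36, 4.13, 2.97 and 4.3. Those of C4orf47 (-2.32), CYS1 (-1.90), CD70 (-1.88) and DMGDH (-1.85) also rest on low values in 1 line, and none was called without the 3 ARCaPM-DR libraries numbered 3. CYS1 was not called by edgeR (adjusted p = 0.916) or DESeq2 (adjusted p = 0.532), and CD70 was not called by DESeq2 (adjusted p = 0.084).

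Shared responses show the other end of the comparison. Among genes called in both lines in the same direction with a difference under 0.2 in size, GPR137B, CCND2 and GALNT7 rose and MYEOV, MYBL2 and XK fell. CCND2, a cyclin of the cell cycle's first phase, stood at 505, 626 and 568 normalised reads in ARCaPM-DR controls and at 967 to 1388 in the knockdown libraries. In 22Rv1-DR the controls held 18.9, 30.8 and 35.9 and the knockdown libraries 36.7 to 102. It rose by 0.96 and 1.04, and the interval of the difference ran from -0.57 to 0.41. GALNT7, an enzyme of mucin-type glycosylation, rose by 1.05 and 0.89, with an interval from -0.21 to 0.51, and no library of knockdown overlapped a control in either line. The intervals of GPR137B (-0.50 to 0.62), MYEOV (-0.62 to 0.36), MYBL2 (-0.50 to 0.61) and XK (-0.65 to 0.49) allow differences of up to about that size. Without the 22Rv1-DR control that stood apart, the difference of GPR137B was 0.47 and was called (limma, adjusted p = 0.0266). Leaving out any other single library left it uncalled.

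The hairpins were compared within the difference. With shGATA2a alone 1117 genes were called (7.55%, of which 4.90% higher and 2.65% lower). With shGATA2b alone, against the same controls, 1147 were called (7.76%, of which 4.34% higher and 3.42% lower). Of the 1559, 599 were called with each hairpin alone and 1558 had the same sign with each. The 1559 were called on the mean of both hairpins, and both were set against the same controls. Their agreement in sign therefore follows largely from the call and is no further support for it. The difference itself depended on the hairpin for 70 genes (0.473%), of which 27 were among the 1559. Of the 118 named genes with a called difference, 79 were called with each hairpin alone, 12 with shGATA2a and not shGATA2b, 18 with shGATA2b and not shGATA2a, and 9 with neither. THBS1 had a difference of 0.39 with shGATA2a (adjusted p = 0.141) and 1.51 with shGATA2b (adjusted p = 0.000213), and GATA2, RORA and KLF4 were also among the 18. Among the 12 was CLDN1, at 2.20 with shGATA2a (adjusted p = 0.00358) and 1.07 with shGATA2b (adjusted p = 0.0991), as were IGF1, C4orf47, DMGDH, ITGA1, ITGAV, KIF11, KIF4A, ANLN, DUT, HSP90AB1 and RPLP0.

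The letters of the GATA motif were counted in the same promoter windows, searched on both strands as the letters AGATAA or the letters AGATAG, and likewise as the letters TGATAA or the letters TGATAG. They were in 16.5% of 14992 windows of tested genes, in 21.4% of 1044 windows of genes called higher in ARCaPM-DR and in 15.6% of 735 windows of genes called lower. The share over all windows of the table was 25.0%. Only 10158 of the 14785 tested symbols matched the table, and a gene can have several windows.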

How the data were processed

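RNA of 18 libraries (2 lines, 3 hairpins, 3 replicates each) was sequenced. Per the submitters' processing notes, TopHat2 2.0.9 and Cufflinks 1.3.0 were used with build hg19 (GRCh37); no source used here names the counting program, its use of strand or the scaling tool. The deposited signal of a gene is a read count that the authors divided by a size factor for each library, since the values are whole multiples of a step for each library. Whole reads were recovered from the steps within 0.005 reads.

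From these values log2(value + 1) was fitted with limma 3.58.1 (R 4.3.3; trend, 6 groups, replicate number within a line as block, 8 residual degrees of freedom) for the 14785 of 23228 genes that reached 10 in 3 or more of the 18 libraries. P-values were adjusted over these genes by Benjamini-Hochberg. Alternatives included edgeR 4.0.16 and DESeq2 1.42.0 on recovered reads, other filters and scalings, no block and each library left out. Scripts were tested on simulated data.

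The replicate numbers come from the sample titles. Same-numbered libraries deviated together, with correlations from 0.21 to 0.74 in 22Rv1-DR and from 0.06 to 0.74 in ARCaPM-DR (9 pairs of libraries in each line). What a number stands for is not stated in the labels.

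Named genes were 12 fixed genes; the 10 largest differences each way; up to 6 opposite changes, 5 changes called in 22Rv1-DR alone, 4 genes low in 1 line and 3 shared changes each way; and up to 3 members of each list by adjusted p. Genes with values that were not whole reads were eligible only among the 12. The 10 largest each way were taken among called genes with a mean of at least 50 in each line, over control and knockdown libraries together. Their replicate-wise changes also had to lie apart between the lines. The comparison, its genes and its lists were chosen with earlier results of these data known. Some genes are not reported here, though counts over the named genes and lists include them.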

Additional observations from a re-analysis of the deposited data

Results flagged for a closer look

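For 118 of the 132 named genes the knockdown change differed between ARCaPM-DR and 22Rv1-DR by limma's test of the difference itself (adjusted p of at most 0.05). The genes were partly chosen for this, so the values describe them and are not independent support. In brackets stands the change in ARCaPM-DR minus the change in 22Rv1-DR, on the log2 scale.

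The difference was positive for 64 genes. The most positive differences were those of EFHA2 (5.06), IFI44L (4.79), LRRN3 (4.04), SLIT2 (3.32), SPARC (3.01), LPHN2 (2.95), IGF1 (2.92) and CALCRL (2.87). Next in size came CLIP4 (2.78), GBP1 (2.59), FLRT3 (2.54), SCG2 (2.47), TC2N (2.06), HMGN5 (2.04), PLSCR4 (1.92) and PCDH10 (1.91). These were followed by COL5A2 (1.88), IFI6 (1.72), STMN1 (1.67), CLDN1 (1.64), TGFBR2 (1.62), STARD4 (1.49), KLK3 (1.37) and PDIA4 (1.37). Smaller values belonged to ERBB4 (1.36), ABCB1 (1.36), SPRY1 (1.34), MARVELD3 (1.32), ADM (1.27), EPCAM (1.16), PMAIP1 (1.13) and CTGF (1.12). Below them in size stood TGFB2 (1.12), ITGA2 (1.08), CYP1B1 (1.07), VGF (1.07), TRNP1 (1.02), RHOB (1.02), C1orf63 (1.01) and ASPH (0.95). Further members were THBS1 (0.95), IMPA1 (0.94), ALDH1L2 (0.94), DZIP1L (0.92), HSP90AA1 (0.89), HSP90B1 (0.84), PHGDH (0.82) and TUBA1A (0.81). Then came PSAT1 (0.77), ERAP1 (0.77), ME1 (0.76), KIF4A (0.71), OAS3 (0.7), FN1 (0.69), STC2 (0.69) and APAF1 (0.69). The smallest positive differences were those of KIF11 (0.66), ITGAV (0.65), ITGA1 (0.63), COX6C (0.62), ANLN (0.58), GINS3 (0.58), COPB1 (0.58) and ORC6 (0.51).

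It was negative for 54 genes, not all of them listed here. The most negative differences were those of CD68 (-2.46), C4orf47 (-2.32), FAM167A (-2.07), SLCO5A1 (-1.94), CYS1 (-1.9), CD70 (-1.88), DMGDH (-1.85) and ZNF25 (-1.81). Next in size came CSF1 (-1.77), NDRG1 (-1.74), TRPM8 (-1.73), RORA (-1.6), KLF4 (-1.58), DUSP4 (-1.57), HK2 (-1.56) and PARK7 (-1.54). These were followed by STK40 (-1.5), UQCRC2 (-1.38), PDK1 (-1.32), HSPB1 (-1.23), NUAK1 (-1.19), GPRC5A (-1.14), PAK6 (-1.13) and NFKBIA (-1.11). Smaller values belonged to TSKU (-1.07), EPHB2 (-1.05), MTHFD1 (-1.03), TMEM184B (-1.02), HOXB13 (-1.02), SURF4 (-0.96), MEX3A (-0.93) and SMAD9 (-0.91). Below them in size stood YPEL1 (-0.89), ACSL1 (-0.89), DUSP1 (-0.87), GATA2 (-0.85), RELA (-0.85), RHOA (-0.85), RRM2B (-0.82) and DUT (-0.8). Further members were CTSA (-0.79), GATA6 (-0.79), PRPS2 (-0.75), SCD (-0.74), BTG2 (-0.74), RPLP0 (-0.73) and LMAN1 (-0.71). The smallest negative differences were those of INSIG1 (-0.69), WIPI1 (-0.61), TAP1 (-0.58), IGF2BP2 (-0.55), HSP90AB1 (-0.51) and TNFRSF10B (-0.48).

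Of the 118, 42 were also called without the replicate block, 89 in each of the 18 fits that left out 1 library, 116 by edgeR and 114 by DESeq2. Without the 3 ARCaPM-DR libraries numbered 3, 84 were called, and without Control replicate 3 of 22Rv1-DR 110 were called. Among those that lost the call when 1 library was left out were GINS3 (in 16 of the 18 fits), DUT (14), ORC6 (11) and DMGDH (6). Without Control replicate 3 of 22Rv1-DR the difference of SCD was -0.47.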

How the results depend on the processing

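The block moved the counts most. Without the replicate block 242 genes were called for the difference in place of 1559, with 164 in place of 930 higher and 78 in place of 629 lower, and 0 in place of 35 in opposite directions. Same-numbered libraries of a line had correlations of at least 0.21 in 22Rv1-DR but down to 0.06 in ARCaPM-DR, so the numbers do not pair all ARCaPM-DR libraries by this measure. All 242 genes were among the 1559. In this balanced design the block changes the spread used by the test and not the differences, so no sign could turn. Of the 118 named genes with a called difference, 42 kept the call without the block.

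With library weights the counts were 2586, 1435 higher, 1151 lower and 67 opposite. Of the genes called, those that also differed by at least 1 on the log2 scale numbered 507, with 348 higher, 159 lower and 15 opposite. Opposite calls were 21 without the trend, 63 with DESeq2, 20 with shGATA2a alone, 2 with shGATA2b alone and 18 without the 22Rv1-DR libraries numbered 3. With all 27 libraries 999 genes were lower and 80 opposite, and with shGATA2a alone 392 were lower. The next 2 alternatives were chosen after seeing the data. Without the block and without genes holding values that were not whole, the counts were 205, 134, 71 and 0. Without the ARCaPM-DR libraries numbered 3 they were 729, 458, 271 and 8. Leaving out 1 library gave 877 to 2474 calls, 524 to 1363 higher, 344 to 1111 lower and 12 to 52 opposite; the highest total came without Control replicate 3 of 22Rv1-DR and the lowest without Control replicate 1 of ARCaPM-DR.

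Signs turned only for genes with no called difference. With quantile normalisation IGF2 was 0.27, GPR137B -0.01 and XK 0.05. With library weights CCND2 was 0.01, MYEOV 0.02 and MYBL2 -0.18. Without the 22Rv1-DR libraries numbered 3, CCND2 was 0.14 and MYBL2 -0.25, without the ARCaPM-DR ones MYBL2 was -0.08, and with shGATA2a alone MYEOV was 0.13. The cause was not tested. Over the named genes, 4071 results under alternatives kept direction and side of the threshold, 496 lost the call, 15 gained it and 26 turned.

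Depth limits low genes most: the shallowest library held 3.436 M reads, and a gene at 0 can have up to 3 reads there.

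When 1 library was left out, the difference ran for GPR137B from -0.21 to 0.47, for CCND2 from -0.3 to 0.14, for MYBL2 from -0.25 to 0.37, for XK from -0.3 to 0.08.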

Other observations

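The 9 DU145-DR libraries, another chemotherapy-resistant line with the same hairpins, belong to no part of the comparison. Their changes are given here per replicate number (mean ± SD, n = 3) beside those of the 2 lines, with no test. Of the 20 genes named above for the largest differences, the DU145-DR change lay nearer to that of 22Rv1-DR for 19 and nearer to that of ARCaPM-DR for COL5A2. These genes were chosen for a large difference, and all but STK40 had no called change in 22Rv1-DR. A line with small changes would therefore lie nearer to 22Rv1-DR, so this count follows largely from the choice of genes. EFHA2 changed by 1.07 ± 0.32 in DU145-DR, against 4.90 and -0.16 in ARCaPM-DR and 22Rv1-DR. The glycolytic gene HK2 changed by 0.70 ± 0.22, against -1.86 and -0.31, and NDRG1 by 0.15 ± 0.06, against -1.43 and 0.31. STK40, which fell in both lines, changed by -0.95 ± 0.28, between the other values of -1.93 and -0.43.

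The 12 named genes with opposite changes were chosen in another way, so the counts of these sets cannot be compared. For 9 of them the DU145-DR change lay nearer to that of ARCaPM-DR, and for CYP1B1, NUAK1 and MEX3A nearer to that of 22Rv1-DR. Among the 9, C1orf63 and HSPB1 hardly changed in DU145-DR, by -0.08 ± 0.09 each, and C1orf63 had the sign of its 22Rv1-DR change. ASPH changed by 0.41 ± 0.10 in DU145-DR, against 0.53 in ARCaPM-DR and -0.42 in 22Rv1-DR. The chaperone HSP90B1 changed by 0.51 ± 0.07, against 0.41 and -0.44, and TSKU by -0.68 ± 0.21, against -0.50 and 0.57. HOXB13 spread widely in DU145-DR, from -1.85 to 0.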
